A study of Mus musculus with 27 samples.

Results

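The genes described here are 38 homeostatic astrocyte genes, those through which a resting astrocyte clears transmitter, moves ions and water, feeds neurons and keeps its identity. They were taken as the rows of the count table that carry 38 listed symbols. The rule that selects the rows uses no measured value, but the list was drawn up with earlier results of these data known. All 38 were found among 39338 rows, and all 38 had enough counts to be among the 21768 genes tested. The study delivered RfxCas13d-N2V8, a high-fidelity form of an RNA-cutting CRISPR effector, to a mouse model of C9ORF72-linked ALS and FTD in order to lower the repeat-containing C9ORF72 RNA. C9-BACexp mice carry a bacterial artificial chromosome with the human C9ORF72 gene and its repeat expansion, and C57BL/6J mice are littermates without it. The effector, under the broadly active CAG promoter, came in an AAV with crRNA-13, which targets exon 1a of human C9ORF72, or with NTG, a non-targeted crRNA, and every mouse also received EGFP-KASH, a green protein held at the nuclear envelope. Mice given the effector were injected in the motor cortex at 6 weeks of age, and the EGFP-KASH+ nuclei of 1 mouse per library were sorted 2 months later. No source used here gives an age or a dose for the EGFP-KASH only arm, and the NTG mice are labelled as having received RfxCas13d, which the methods call RfxCas13d-N2V8. There were 6 C9-BACexp mice with NTG, 6 with crRNA-13 and 3 with EGFP-KASH only, and 5 C57BL/6J mice with NTG, 3 with crRNA-13 and 4 with EGFP-KASH only.

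Astrocytes take up synaptic glutamate through transporters in their membrane, convert it to glutamine and return it to neurons, a loop known as the glutamate-glutamine cycle. They are joined to each other by gap junctions, hold water channels in the endfeet that wrap blood vessels, and store the brain's glycogen. In the cortex most of the genes described here are far more abundant in astrocytes than in neurons, and several are used to recognise the cell type. Some are also made by other cells: Glul by oligodendrocytes, Apoe by microglia, and Slc1a2 by some neurons.

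The sort takes nuclei that expressed the vector, whatever their cell type, and their RNA held markers of neurons and of glia. In all 27 libraries Rbfox3, which encodes the neuronal nuclear protein NeuN, was at 727 to 1652 CPM (counts scaled to a common library size by TMM), and Slc17a7, the vesicular glutamate transporter of cortical excitatory neurons, was at 140 to 293 CPM. Gfap, an intermediate filament of astrocytes, was at 1.24 to 21.1 CPM, and Slc1a2 of the list at 443 to 836 CPM. The sum of 14 oligodendrocyte markers was 780.8 to 5375 CPM in C9-BACexp mice and 414.9 to 2407 CPM in C57BL/6J mice. These CPM are not per length, so they do not give the shares of the cell types. By staining of C9-BACexp mice, the paper found that delivery to astrocytes and microglia was limited. In such bulk samples fewer astrocyte nuclei, less RNA per astrocyte nucleus and a change in RNA from other sorted cell types cannot be told apart. A lower level of a gene of the list is therefore not by itself a change in astrocytes. Totals were 21508829 to 36777972 counts per library (median 29001126). Human C9ORF72 transcripts summed to 64.1 to 103 CPM in the 15 C9-BACexp libraries, and none was counted in 11 of the 12 C57BL/6J libraries. The remaining one, C57BL/6J crRNA-13 replicate 5, held 16 such counts. C9-BACexp NTG replicate 6 stood apart by its striatal neuron markers and C9-BACexp NTG replicate 1 by several of the astrocyte genes, so counts are also given without these. C9-BACexp crRNA-13 replicate 1 had the highest sum of oligodendrocyte markers, 5375 CPM, and leaving it out gave 1 called gene within C9-BACexp for crRNA-13 against EGFP-KASH only, and ended the call of Aldh1l1 between the genotypes with crRNA-13 and that of Phkg1 in the mean of the genotype differences, where 17 genes were then called. The share of all genes called was not taken without this library.

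Averaged over the list, the level was lower in C9-BACexp than in C57BL/6J mice under each treatment. The mean log2(CPM + 0.5) of the 38 genes was 3.02 ± 0.242 in C9-BACexp mice with NTG (SD, n = 6), against 3.42 ± 0.195 in C57BL/6J mice with NTG (SD, n = 5). With crRNA-13 it was 3.21 ± 0.0848 in C9-BACexp mice (SD, n = 6), against 3.51 ± 0.335 in C57BL/6J mice (SD, n = 3). With EGFP-KASH only it was 3.20 ± 0.120 in C9-BACexp mice (SD, n = 3), against 3.39 ± 0.161 in C57BL/6J mice (SD, n = 4). The differences of -0.40, -0.30 and -0.19 compare with a pooled SD within groups of 0.197, and the genotypes overlapped under every treatment. A library of a C9-BACexp mouse had 2 to 23 of the 38 genes above their median over all libraries (median 15), against 14 to 35 in a library of a C57BL/6J mouse (median 27). The lowest libraries were C9-BACexp NTG replicates 4 and 5, each with 2 genes above the median, and the highest was C57BL/6J NTG replicate 5, with 35. Within C57BL/6J crRNA-13, replicate 1 had 14 such genes, where replicates 2 and 5 had 32 and 33.

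**Figure D1:**
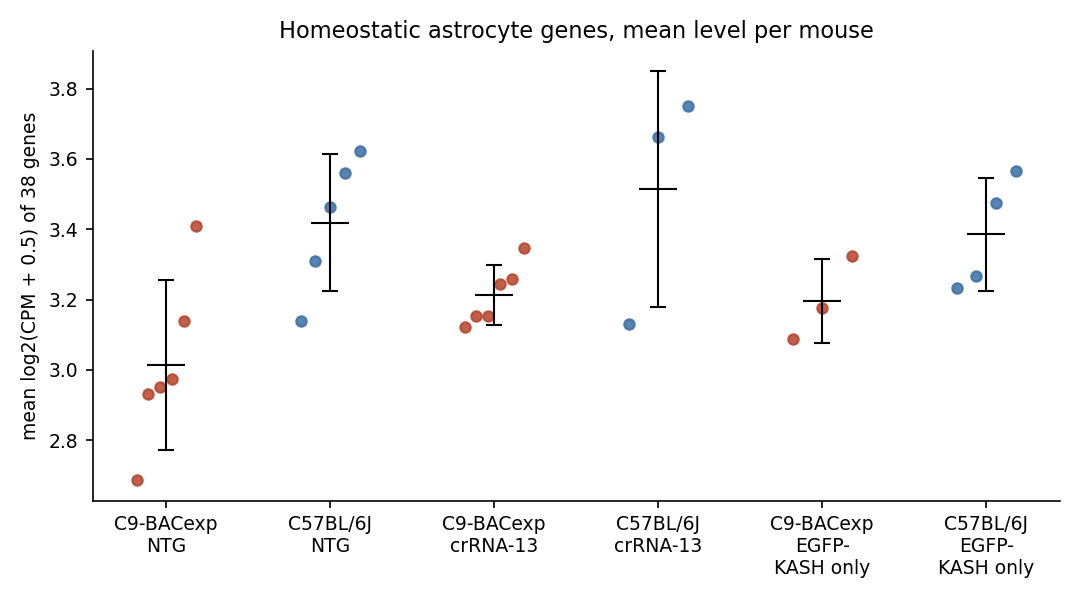
Mean level of the 38 homeostatic astrocyte genes in each mouse, as mean log2(CPM + 0.5), by genotype and treatment. Points are mice, sorted within a group, with the mean and SD. C9-BACexp mice with NTG reached from 2.69 to 3.41, against 3.14 to 3.62 in C57BL/6J mice with NTG, so the groups overlap.

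Gene by gene, 5 of the 38 were called lower and 0 higher in C9-BACexp than in C57BL/6J mice with NTG, where 2.6% of all tested genes were called lower and 4.01% higher. Calls required more than a 1.2-fold difference, with an adjusted p under 0.05, in an edgeR fit that holds 4 factors of unwanted variation, and SE below is the standard error of a log2 fold change. With crRNA-13, 3 were called lower and 0 higher (0.648% and 0.441% of all genes), and with EGFP-KASH only 0 in either direction (2.86% of all genes). Without the factors none of the 38 was called in these 3 comparisons (0.0276%, 0.0184% and 0.0184% of all genes). Of the 38, 16, 8 and 2 then had an unadjusted p under 0.05 (14.1%, 5.17% and 7.94% of all genes), and 15, 8 and 2 of these were lower in C9-BACexp mice (7.4%, 2.91% and 3.94% of all genes). The median log2 fold change of the 38 was -0.43 with NTG, -0.39 with crRNA-13 and -0.22 with EGFP-KASH only, against 0.017, -0.003 and -0.033 over all genes. Of the 38, 20 were below 0 in all 3 comparisons (20.7% of all genes), 2 were above 0 in all 3, and 16 had both signs. Without C9-BACexp NTG replicates 1 and 6, 9 genes were called with NTG, and the median was -0.64. These 2 libraries had the highest means of the list in their group, so a wider difference was set in advance. The share of all genes called was not taken in that fit.

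The mean of the 3 genotype differences had the smallest standard errors, since all 27 mice enter it. In it 16 of the 38 were called lower and 0 higher in C9-BACexp mice, where 4.79% of all tested genes were called lower and 4.94% higher. The median of the 38 was -0.35, against -0.018 over all genes. By role, 4 of 6 genes of glutamate and amino acid handling were called lower, 4 of 8 of ion, water and junction proteins, 6 of 8 metabolic enzymes, 2 of 6 receptors, 0 of 5 secreted proteins and 0 of 5 transcriptional regulators. Slc1a2, Slc1a3, Aqp4 and F3 were also called without the factors, where 0.698% of all genes were called lower. Of the 38, 18 had an unadjusted p under 0.05 without the factors, all of them lower (8.56% of all genes). With C9-BACexp NTG replicates 1 and 6 left out, the highest of their group for the list, 18 were called. Without C57BL/6J crRNA-13 replicate 2 there were 9, and without C57BL/6J crRNA-13 replicate 5 there were 10. The share of all genes called was not taken in these fits. No gene of the list had genotypes that did not overlap over all treatments, a count that describes the list only, since the share of all genes is not given. Within a treatment, 4 genes were lower without overlap with NTG (1.32% of all genes), 2 with crRNA-13 (0.841%) and 2 with EGFP-KASH only (2.83%).

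**Figure D2:**
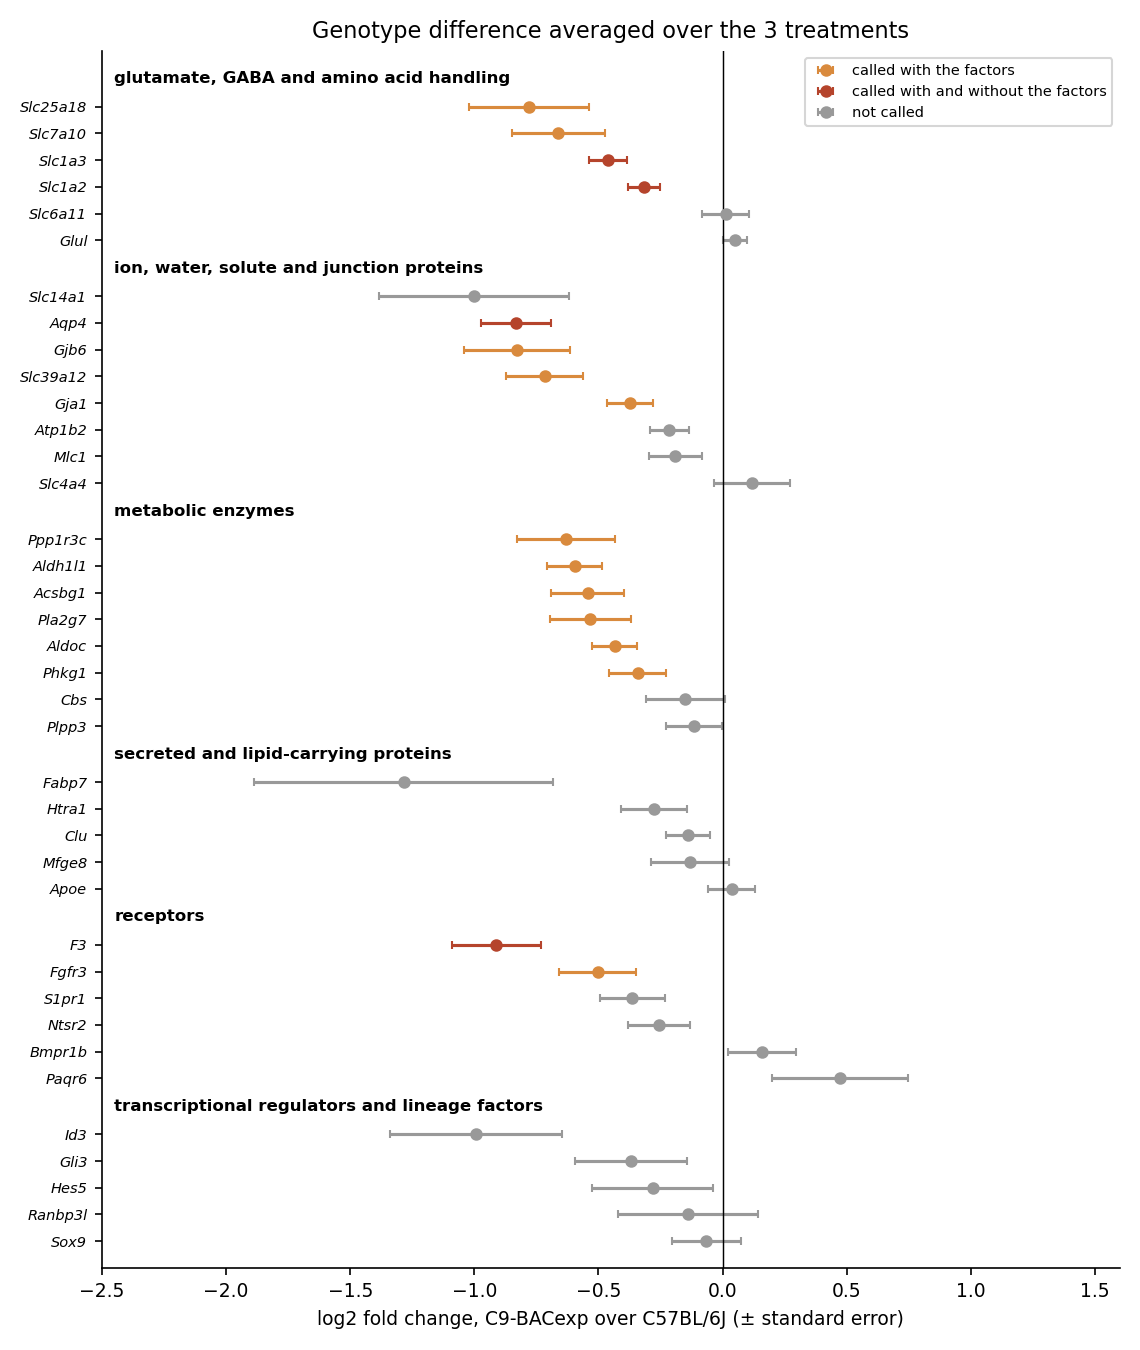
Log2 fold change of each of the 38 genes, C9-BACexp over C57BL/6J, averaged over the 3 treatments and grouped by role, with bars for ± 1 standard error. Red points are the 4 genes called with and without the factors, orange points the other 12 called with them, and grey points the 22 not called, which run from -1.28 for Fabp7 to 0.47 for Paqr6.

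Among genes that handle transmitter, both glutamate transporters were lower in C9-BACexp mice. Slc1a2 encodes GLT-1, which clears most glutamate in the forebrain. It had 443 to 573 CPM (median 495) in C9-BACexp mice with NTG, against 662, 619, 603, 667 and 647 CPM in C57BL/6J mice with NTG, and these groups did not overlap. With crRNA-13 it had 482 to 727 CPM (median 547) in C9-BACexp mice, against 551, 836 and 774 CPM in C57BL/6J mice. With EGFP-KASH only it had 634, 468 and 533 CPM in C9-BACexp mice, against 555, 594, 659.5 and 777 CPM in C57BL/6J mice. Over the 3 treatments Slc1a2 averaged 537 ± 78.3 CPM in C9-BACexp mice (SD, n = 15) and 662 ± 90.5 CPM in C57BL/6J mice (SD, n = 12). In the mean of the genotype differences it fell (log2 fold change -0.32, SE 0.0636, adjusted p = 0.00173, or 0.0459 without the factors), while the separate comparisons did not pass, with adjusted p from 0.0559 with NTG to 0.306 with EGFP-KASH only.

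Slc1a3 encodes GLAST, the other astrocytic glutamate transporter. With NTG it had 26.2 to 45.3 CPM (median 33.8) in C9-BACexp mice, against 63.8, 51.5, 34.5, 49.2 and 78.7 CPM in C57BL/6J mice, where replicate 3 lay within the range of the C9-BACexp mice. It fell with NTG (log2 fold change -0.65, SE 0.115, adjusted p = 0.00327, or 0.249 without the factors), and the call was kept when any 1 of the 11 libraries was left out. With crRNA-13 Slc1a3 had 38.5 to 49.1 CPM (median 43.3) in C9-BACexp mice, against 46.5, 59.1 and 74.4 CPM in C57BL/6J mice (log2 fold change -0.44, adjusted p = 0.0873). Its EGFP-KASH only groups had 32.9, 43.1 and 36.9 CPM in C9-BACexp mice, against 42.9, 31.4, 55.3 and 56.9 CPM in C57BL/6J mice (log2 fold change -0.30, adjusted p = 0.33). In the mean of the differences it fell with the smallest p of the list (log2 fold change -0.46, SE 0.0764, adjusted p = 0.0003, or 0.0394 without the factors).

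Slc7a10 encodes Asc-1, a transporter of small neutral amino acids such as glycine and D-serine, and Slc25a18 a mitochondrial glutamate carrier. Slc7a10 had 2.98 to 10.4 CPM (median 6.08) in all C9-BACexp mice, against 5.33 to 18.7 CPM (median 9.49) in all C57BL/6J mice, and fell in the mean of the differences (log2 fold change -0.66, SE 0.186, adjusted p = 0.0192). Slc25a18 had 1.21 to 5.58 CPM (median 2.79) in C9-BACexp mice, against 2.11 to 9.61 CPM (median 5.04) in C57BL/6J mice, and also fell (log2 fold change -0.78, SE 0.240, adjusted p = 0.0311). C57BL/6J crRNA-13 replicate 2 was the highest mouse for both, and without it neither was called. Of 27 fits that left out 1 library, 25 kept the call of Slc7a10 and 22 that of Slc25a18. Neither call held without the factors (adjusted p = 0.0732 and 0.1). The 2 remaining genes of the group stood near 0. Slc6a11, the GABA transporter GAT-3, averaged 51.9 ± 9.43 CPM in C9-BACexp mice and 52.3 ± 9.06 CPM in C57BL/6J mice (SD, n = 15 and 12, log2 fold change 0.01, SE 0.0945). Glul, glutamine synthetase, which makes glutamine from glutamate, averaged 72.6 ± 36.8 CPM in C9-BACexp mice and 70.1 ± 31.5 CPM in C57BL/6J mice (SD, n = 15 and 12, log2 fold change 0.05, SE 0.0487). Its highest libraries were C9-BACexp crRNA-13 replicate 1 at 188 CPM, C57BL/6J NTG replicate 5 at 134 CPM and C9-BACexp NTG replicate 1 at 116 CPM, whose 14 oligodendrocyte markers summed to 5375, 2407 and 3071 CPM, where the medians were 1668 CPM in C9-BACexp and 1050 CPM in C57BL/6J mice. The part of oligodendrocyte RNA in Glul was not tested.

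**Figure D3:**
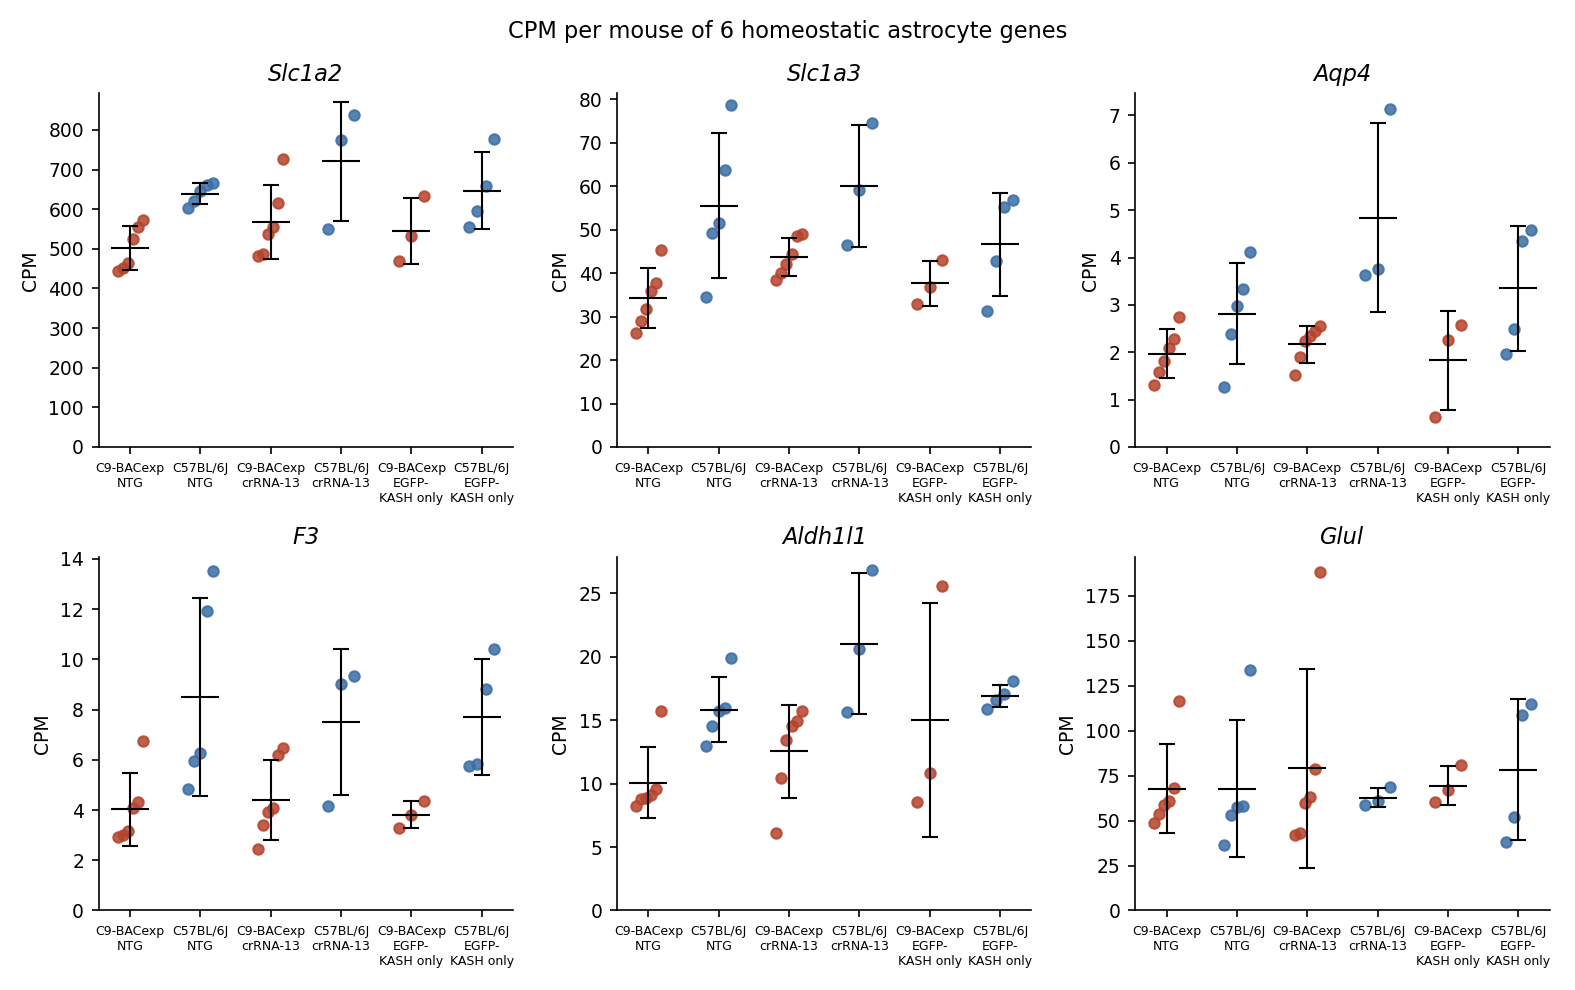
CPM per mouse of Slc1a2, Slc1a3, Aqp4, F3, Aldh1l1 and Glul in the 6 groups. Points are mice, sorted within a group, red for C9-BACexp and blue for C57BL/6J, with the mean and SD. Slc1a2 with NTG shows no overlap (443 to 573 CPM in C9-BACexp mice, against 603 to 667 CPM in C57BL/6J mice), while Glul spreads widely within groups.

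Of the partners of the same cycle in neurons and astrocytes, 17 of 18 were tested. In C9-BACexp against C57BL/6J mice with NTG 2 were called lower and 0 higher (2.6% and 4.01% of all genes). Among them was Glud1, glutamate dehydrogenase (log2 fold change -0.32, adjusted p = 0.0188). In the mean of the differences only Slc38a3, the glutamine exporter SNAT3 of astrocytes, was called (log2 fold change -0.46, adjusted p = 0.0438), where 4.79% of all genes were called lower. Without the factors none of the 17 was called in either comparison, where 0.0276% of all genes were called with NTG and 0.698% lower in the mean. The median of the 17 was -0.039 with NTG and -0.047 in the mean of the differences.

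Among channels, junctions and solute transporters, Aqp4, Gja1, Gjb6 and Slc39a12 fell in C9-BACexp mice. Aqp4 encodes aquaporin-4, the water channel of astrocyte endfeet. With crRNA-13 it had 1.53 to 2.56 CPM (median 2.29) in C9-BACexp mice, against 3.75, 3.64 and 7.14 CPM in C57BL/6J mice, and the groups did not overlap (log2 fold change -1.05, SE 0.237, adjusted p = 0.0183, or 0.42 without the factors). With NTG it had 1.31 to 2.75 CPM (median 1.96) in C9-BACexp mice, against 4.12, 3.34, 1.27, 2.38 and 2.97 CPM in C57BL/6J mice (log2 fold change -0.47, adjusted p = 0.275). With EGFP-KASH only it had 0.639, 2.27 and 2.58 CPM in C9-BACexp mice, against 1.96, 2.50, 4.36 and 4.58 CPM in C57BL/6J mice (log2 fold change -0.97, adjusted p = 0.0622). Over the treatments Aqp4 averaged 2.02 ± 0.568 CPM in C9-BACexp mice (SD, n = 15) and 3.501 ± 1.52 CPM in C57BL/6J mice (SD, n = 12), and it fell in the mean of the differences (log2 fold change -0.83, SE 0.141, adjusted p = 0.000364, or 0.0474 without the factors). Its call with crRNA-13 was kept in 8 of 9 fits that left out 1 library and lost without C57BL/6J replicate 5, the highest mouse.

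Gja1 and Gjb6 encode connexin 43 and connexin 30, the gap junction proteins that couple astrocytes. Gja1 had 3.52 to 6.30 CPM (median 4.09) in C9-BACexp mice with NTG, against 8.40, 6.81, 5.34, 5.74 and 7.81 CPM in C57BL/6J mice with NTG, and fell (log2 fold change -0.61, SE 0.139, adjusted p = 0.0208, or 0.443 without the factors), although replicate 1 of the C9-BACexp mice, at 6.30 CPM, lay above the lowest C57BL/6J mice. That call was kept in 7 of 11 fits that left out 1 library and lost without C57BL/6J replicate 1 or 5 or C9-BACexp replicate 2 or 4. With crRNA-13 it had 4.81 to 6.20 CPM (median 5.74) in C9-BACexp mice, against 5.30, 7.18 and 9.89 CPM in C57BL/6J mice. Its EGFP-KASH only groups had 6.07, 6.69 and 5.70 CPM in C9-BACexp mice, against 4.12, 6.27, 9.81 and 8.14 CPM in C57BL/6J mice. The last of these differences did not pass (log2 fold change -0.14), and the mean over treatments was called (log2 fold change -0.37, SE 0.0921, adjusted p = 0.00826). Gjb6 had 1.17 to 6.63 CPM (median 2.40) in all C9-BACexp mice, against 2.72 to 8.63 CPM (median 4.74) in all C57BL/6J mice, and fell in the mean of the differences (log2 fold change -0.83, SE 0.214, adjusted p = 0.0113). Without the factors neither passed in that mean (adjusted p = 0.115 for Gja1 and 0.107 for Gjb6).

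Slc39a12 encodes ZIP12, a zinc importer. With NTG it had 3.25 to 7.48 CPM (median 5.84) in C9-BACexp mice, against 15.7, 10.96, 7.34, 12.7 and 17.7 CPM in C57BL/6J mice, and it fell (log2 fold change -1.12, SE 0.235, adjusted p = 0.0117). Only C57BL/6J replicate 3 lay within the C9-BACexp range. With crRNA-13 it had 4.87 to 13.04 CPM (median 7.23) in C9-BACexp mice, against 7.73, 22.02 and 16.2 CPM in C57BL/6J mice, and it fell as well (log2 fold change -1.05, SE 0.265, adjusted p = 0.0357). These groups overlapped through C57BL/6J replicate 1, which was below 3 of the C9-BACexp mice, and the call was kept in 4 of 9 fits that left out 1 library. With EGFP-KASH only the values were 23.3, 6.80 and 8.52 CPM in C9-BACexp mice, against 13.3, 5.46, 12.3 and 10.8 CPM in C57BL/6J mice (log2 fold change 0.02, SE 0.296). Without the factors the adjusted p was 0.306 with NTG and 0.51 with crRNA-13. Whether the genotype difference of Slc39a12 differed between EGFP-KASH only and the other treatments was not tested.

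The other 4 genes of this role were not called between the genotypes. Slc4a4, the sodium bicarbonate cotransporter NBCe1, had 132 to 536 CPM (median 195) in C9-BACexp mice, against 132 to 250.5 CPM (median 186) in C57BL/6J mice (log2 fold change 0.12), and its maximum was C9-BACexp NTG replicate 6, the library with the most striatal marker RNA. Mlc1, a membrane protein of astrocyte endfeet that is mutated in a human leukoencephalopathy, had a log2 fold change of -0.19, and Atp1b2, a sodium pump subunit, one of -0.22. With crRNA-13 Atp1b2 had 15.6 to 18.5 CPM (median 16.4) in C9-BACexp mice, against 18.5, 23.3 and 23.3 CPM in C57BL/6J mice, whose groups were separated only by 18.517 CPM against 18.522 CPM (adjusted p = 0.182). Slc14a1, a urea transporter, was near the limit of detection, at 0 in C9-BACexp EGFP-KASH only replicate 2 and at most 1.33 CPM in any library.

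Metabolic enzymes were the role with most calls. Aldh1l1, a folate enzyme widely used to mark astrocytes, had 8.25 to 15.8 CPM (median 9.01) in C9-BACexp mice with NTG, against 12.99, 15.7, 19.9, 14.6 and 15.9 CPM in C57BL/6J mice with NTG, and fell (log2 fold change -0.64, SE 0.165, adjusted p = 0.0413). Of the 6 C9-BACexp mice 5 were below every C57BL/6J mouse, and replicate 1 was at 15.8 CPM. With crRNA-13 it had 6.11 to 15.8 CPM (median 14.0) in C9-BACexp mice, against 15.7, 26.8 and 20.6 CPM in C57BL/6J mice, and fell (log2 fold change -0.78, SE 0.187, adjusted p = 0.026). With EGFP-KASH only it had 25.6, 8.57 and 10.9 CPM in C9-BACexp mice, against 18.1, 15.9, 17.1 and 16.6 CPM in C57BL/6J mice (log2 fold change -0.37, adjusted p = 0.409). It fell in the mean of the differences (log2 fold change -0.60, SE 0.109, adjusted p = 0.00077, or 0.0955 without the factors). Leaving out 1 library ended the call with NTG in 9 of 11 cases and the call with crRNA-13 in 3 of 9, and none of 27 ended that in the mean.

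Phkg1 encodes the catalytic subunit of phosphorylase kinase, which switches on glycogen breakdown. With NTG it had 4.03 to 6.73 CPM (median 5.05) in C9-BACexp mice, against 9.70, 7.18, 8.85, 9.06 and 7.36 CPM in C57BL/6J mice, with no overlap, and it fell (log2 fold change -0.70, SE 0.173, adjusted p = 0.0306, or 0.285 without the factors), a call kept in 5 of 11 fits that left out 1 library and lost without C57BL/6J replicate 1 or 4 or C9-BACexp replicate 3, 4, 5 or 6. With crRNA-13 the log2 fold change was -0.40 and with EGFP-KASH only 0.07, and the mean of the differences just passed (log2 fold change -0.34, SE 0.114, adjusted p = 0.0464), a call kept in 8 of 27 fits without 1 library. Ppp1r3c, which brings protein phosphatase to glycogen and favours its storage, had 0.682 to 1.23 CPM (median 0.882) in C9-BACexp mice with NTG, against 2.36, 1.74, 1.27, 1.70 and 1.35 CPM in C57BL/6J mice with NTG. These did not overlap, but the comparison did not pass (adjusted p = 0.115), while the mean of the differences did (log2 fold change -0.63, SE 0.198, adjusted p = 0.0337). That call was kept in 20 of 27 fits without 1 library, and the lowest count of Ppp1r3c in a library was 9.

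Aldoc, the aldolase of brain glycolysis, had 7.65 to 14.7 CPM (median 9.46) in C9-BACexp mice, against 9.46 to 21.4 CPM (median 12.1) in C57BL/6J mice, and fell in the mean of the differences (log2 fold change -0.43, SE 0.0913, adjusted p = 0.00246). With EGFP-KASH only its groups did not overlap, at 10.91, 8.06 and 9.46 CPM in C9-BACexp mice, against 10.93, 10.97, 16.5 and 21.4 CPM in C57BL/6J mice (adjusted p = 0.0635). Acsbg1, an acyl-CoA synthetase for very long chain fatty acids, had 4.999 to 12.6 CPM (median 8.69) in C9-BACexp mice, against 5.74 to 21.97 CPM (median 11.7) in C57BL/6J mice, and fell (log2 fold change -0.54, SE 0.146, adjusted p = 0.014). With NTG its highest C9-BACexp mouse, at 9.75 CPM, was just below the lowest C57BL/6J mouse, at 9.78 CPM. Pla2g7, which inactivates platelet-activating factor, had 2.65 to 8.86 CPM (median 5.10) in C9-BACexp mice, against 5.17 to 8.68 CPM (median 7.68) in C57BL/6J mice, and fell (log2 fold change -0.53, SE 0.162, adjusted p = 0.0294). Of 27 fits that left out 1 library, 27 kept the call of Aldoc, 25 that of Acsbg1 and 22 that of Pla2g7. Without the factors the adjusted p of Aldoc, Acsbg1, Pla2g7, Phkg1 and Ppp1r3c was 0.072, 0.0939, 0.101, 0.185 and 0.149. Cbs, which makes cystathionine from homocysteine, and Plpp3, a lipid phosphate phosphatase, were not called (log2 fold change -0.15 and -0.11). Plpp3 had 16.4 to 38.8 CPM (median 30.2) in C9-BACexp mice, against 21.98 to 45.9 CPM (median 31.5) in C57BL/6J mice.

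Promoters of the list were read for short motifs of 3 families of transcription factors that act in astrocyte development, in the 250 bases before each start and on both strands. RefSeq promoters of build GRCm38.p6 covered 32 of the 38 genes with 39 promoters. The NFI motif TTGGCA was in 4 of them (10.3%), against 12.3% of 32851 promoters of all genes. The SOX core ACAATG was in 3 (7.69%, against 10.7% of all), and the HES site CACGTG in 3 (7.69%, against 6.02% of all). A match describes the letters only. Aldoc and Phkg1 were the called genes with an NFI motif, and their 250 bases are shown 5′ to 3′ on the strand of the gene with the motif in capitals. They lie at chr5:129879089-129879338 on the minus strand for Phkg1, where the motif begins 21 bases before the start, and at chr11:78322823-78323072 on the plus strand for Aldoc, where it begins 146 bases before the start.
Phkg1: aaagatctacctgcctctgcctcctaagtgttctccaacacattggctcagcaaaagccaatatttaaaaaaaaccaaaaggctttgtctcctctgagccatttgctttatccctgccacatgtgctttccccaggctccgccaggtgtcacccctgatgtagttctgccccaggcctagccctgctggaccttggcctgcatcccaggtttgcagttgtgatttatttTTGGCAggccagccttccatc
Aldoc: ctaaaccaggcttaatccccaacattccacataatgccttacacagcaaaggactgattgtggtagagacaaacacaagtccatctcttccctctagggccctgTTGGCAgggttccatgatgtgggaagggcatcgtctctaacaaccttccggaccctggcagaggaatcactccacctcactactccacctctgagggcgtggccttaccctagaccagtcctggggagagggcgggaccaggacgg

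Secreted and lipid-carrying proteins were not called in any comparison of the genotypes. Htra1, a secreted serine protease, had 27.9 to 122 CPM (median 45.7) in C9-BACexp mice, against 35.4 to 101 CPM (median 60.7) in C57BL/6J mice (log2 fold change -0.28, SE 0.132), and its maximum in C9-BACexp mice was EGFP-KASH only replicate 2. Apoe, the main lipid carrier of the brain, averaged 26.03 ± 7.78 CPM in C9-BACexp mice and 24.9 ± 5.59 CPM in C57BL/6J mice (SD, n = 15 and 12, log2 fold change 0.04, SE 0.0929). Clu, a secreted chaperone, had a log2 fold change of -0.14, and Mfge8, which bridges phagocytes to dying cells, one of -0.13. Fabp7, a fatty acid-binding protein of radial glia and astrocytes, was at 0 in 4 libraries and at most 0.933 CPM in the others, so its log2 fold change of -1.28 (SE 0.602) rests on few counts.

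Among receptors, F3 and Fgfr3 fell. F3 encodes tissue factor, the cell surface receptor that starts coagulation and which astrocytes make in the brain. With NTG it had 2.91 to 6.73 CPM (median 3.61) in C9-BACexp mice, against 11.9, 6.26, 4.82, 5.94 and 13.5 CPM in C57BL/6J mice. With crRNA-13 it had 2.46 to 6.48 CPM (median 3.99) in C9-BACexp mice, against 4.16, 9.33 and 9.02 CPM in C57BL/6J mice. Its EGFP-KASH only groups had 3.28, 3.82 and 4.37 CPM in C9-BACexp mice, against 8.82, 5.76, 10.4 and 5.83 CPM in C57BL/6J mice, and only here did the groups not overlap. The log2 fold changes were close to each other, at -0.94, -0.78 and -1.01, and none passed alone (adjusted p = 0.0646, 0.198 and 0.134). F3 averaged 4.14 ± 1.33 CPM in C9-BACexp mice (SD, n = 15) and 7.99 ± 2.97 CPM in C57BL/6J mice (SD, n = 12), and the mean of the differences passed (log2 fold change -0.91, SE 0.178, adjusted p = 0.00135, or 0.0232 without the factors).

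Fgfr3, a fibroblast growth factor receptor of astrocytes and their progenitors, had 5.31 to 28.7 CPM (median 12.5) in C9-BACexp mice, against 12.9 to 34.7 CPM (median 17.6) in C57BL/6J mice, and fell in the mean of the differences (log2 fold change -0.50, SE 0.156, adjusted p = 0.0323, or 0.195 without the factors). Its highest C9-BACexp library was EGFP-KASH only replicate 2, and C57BL/6J crRNA-13 replicate 2, the highest of all, was 1 of 5 libraries without which it was not called. Not called were S1pr1, a sphingosine 1-phosphate receptor (log2 fold change -0.36), Ntsr2, a neurotensin receptor (-0.26), Bmpr1b, a receptor of bone morphogenetic proteins (0.16), and Paqr6, a membrane progestin receptor (0.47). Bmpr1b had 56.2 to 109.1 CPM (median 68.7) in C9-BACexp mice, against 47.2 to 121 CPM (median 66.0) in C57BL/6J mice, and Paqr6 was under 2 CPM in every library.

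Transcriptional regulators showed no call. Sox9, which directs the glial fate and is kept on in astrocytes, averaged 2.70 ± 0.581 CPM in C9-BACexp mice and 2.95 ± 0.792 CPM in C57BL/6J mice (SD, n = 15 and 12, log2 fold change -0.07, SE 0.140). Gli3, a transcription factor of Hedgehog signaling, had 6.07 to 32.5 CPM (median 11.4) in C9-BACexp mice, against 9.81 to 22.8 CPM (median 15.2) in C57BL/6J mice (log2 fold change -0.37, SE 0.226), and its maximum was again C9-BACexp NTG replicate 6. Hes5, a Notch target, and Id3, an inhibitor of differentiation, averaged under 1 CPM, with log2 fold changes of -0.28 and -0.99. Ranbp3l, a nuclear export factor for SMAD proteins, had a log2 fold change of -0.14.

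The treatment comparisons address what crRNA-13, and the effector with NTG, did within a genotype. They share groups with each other and with the genotype comparisons, so their values stand side by side only. In C9-BACexp mice 1 of the 38 genes was called higher and 0 lower with crRNA-13 than with NTG (0.239% of all genes in each direction), and 32 of the 38 had a log2 fold change above 0, where 54.6% of all genes were below 0. The median of the 38 was 0.17, against -0.023 over all genes. That gene was Mlc1, which had 3.87 to 5.51 CPM (median 4.60) with crRNA-13, against 1.88 to 3.499 CPM (median 3.10) with NTG. Every mouse with crRNA-13 was above every mouse with NTG (log2 fold change 0.67, SE 0.157, adjusted p = 0.0225), where 0.115% of all genes stood higher without overlap. Without the factors Mlc1 was not called (adjusted p = 0.341), while the call was kept in all 12 fits that left out 1 library. In the other groups Mlc1 had 2.52, 4.35 and 4.03 CPM in the C9-BACexp EGFP-KASH only group, 4.004, 4.53, 2.93, 3.40 and 5.18 CPM in C57BL/6J mice with NTG, 4.16, 5.08 and 4.01 CPM in C57BL/6J mice with crRNA-13 and 3.59, 2.96, 5.23 and 5.21 CPM in C57BL/6J mice with EGFP-KASH only. Of these, only C57BL/6J mice with crRNA-13 did not overlap with the C9-BACexp mice with NTG.

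The 5 genes called lower in C9-BACexp mice with NTG did not pass for crRNA-13 against NTG in that genotype. Slc1a3 had a log2 fold change of 0.36 (adjusted p = 0.0877), Gja1 one of 0.35 (adjusted p = 0.187), Slc39a12 one of 0.35 (adjusted p = 0.48), Phkg1 one of 0.33 (adjusted p = 0.349) and Aldh1l1 one of 0.26 (adjusted p = 0.455). Both comparisons use the same NTG mice. Without C9-BACexp NTG replicates 1 and 6, 2 genes were called in the comparison of crRNA-13 with NTG, and the median was 0.40. Without replicate 1 alone 2 genes were called as well. These NTG libraries had the highest means of the list in their group, so a higher median without them was set in advance. The share of all genes called was not taken in these fits. A test of whether the genotype difference was itself changed by crRNA-13, relative to NTG, gave a call for 0 of the 38 genes (0.00459% of all genes), and 0 had an unadjusted p under 0.05 without the factors (4.24% of all genes). Its median over the 38 was 0.044. For Slc1a3 it was 0.22 with a standard error of 0.178, and for Mlc1 0.51 with a standard error of 0.252 (adjusted p = 0.496).

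No gene of the list was called in the other treatment comparisons. In C9-BACexp mice the median of the 38 was 0.027 for crRNA-13 against EGFP-KASH only (0.923% of all genes called) and -0.14 for NTG against EGFP-KASH only (0.0322% of all genes called). In the first Sox9 was lower without overlap, at 2.46 to 2.85 CPM (median 2.69) with crRNA-13, against 4.44, 2.99 and 2.88 CPM with EGFP-KASH only (adjusted p = 0.543, 0.721% of all genes lower without overlap). In the second Cbs was lower without overlap, at 3.34 to 6.41 CPM (median 4.17) with NTG, against 7.23, 8.06 and 7.10 CPM with EGFP-KASH only (adjusted p = 0.309, 1.05% of all genes). In C57BL/6J mice the medians were 0.12 for crRNA-13 against NTG (0% of all genes called, at the stricter limits set for it), 0.15 for crRNA-13 against EGFP-KASH only (0.404% called) and 0.044 for NTG against EGFP-KASH only (0% called). At an unadjusted p under 0.05 without the factors, 2, 1 and 5 of the 38 passed in the 3 comparisons of C9-BACexp mice (5.28%, 5.32% and 4.55% of all genes), and 0 in each of the 3 of C57BL/6J mice (4.81%, 4.77% and 3.8%). Aqp4 had the largest difference of C57BL/6J mice among genes above 1 CPM, at 3.75, 3.64 and 7.14 CPM with crRNA-13, against 4.12, 3.34, 1.27, 2.38 and 2.97 CPM with NTG (log2 fold change 0.76, adjusted p = 0.197).

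**Figure D4:**
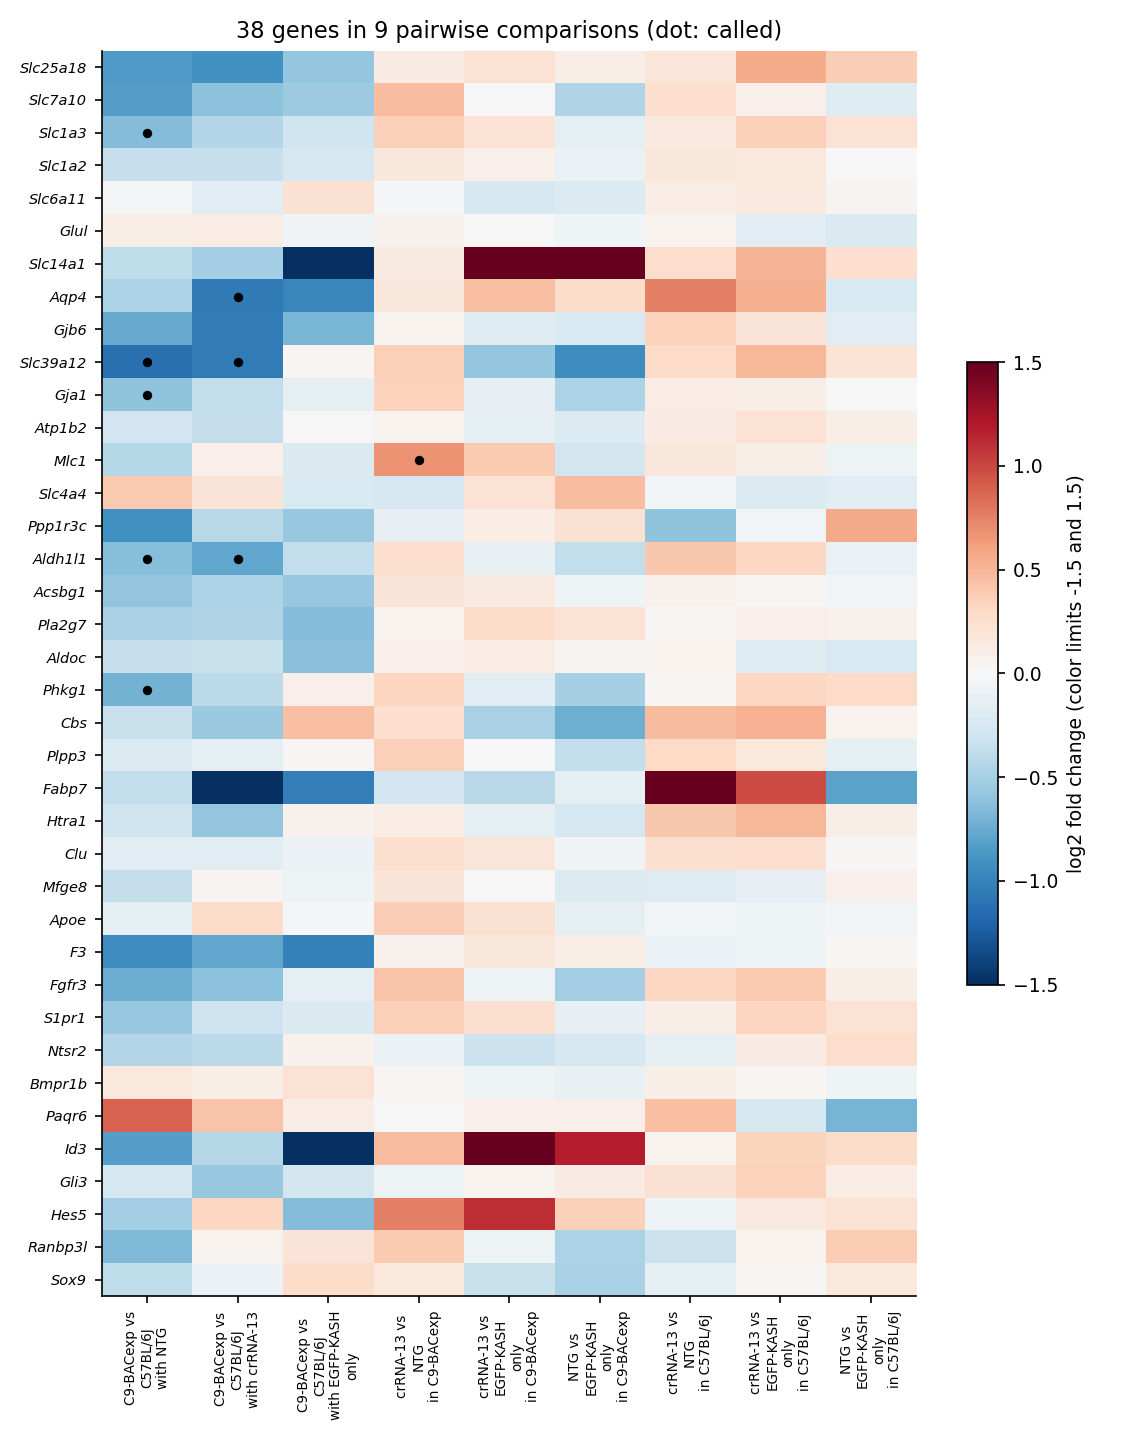
Log2 fold change of the 38 genes (rows, by role) in the 9 pairwise comparisons (columns), blue for lower and red for higher in the first-named group, with the strongest colors also standing for values beyond the scale and a dot for a called gene. The 5 dots with NTG and the 3 with crRNA-13 in the genotype columns are blue, and the 1 dot of crRNA-13 against NTG in C9-BACexp mice, Mlc1, is red.

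The genes were also compared from mouse to mouse within groups. Gja1 was taken as the index gene, and its log2(CPM + 0.5), after removing group means, correlated positively with 34 of the 37 others over 27 mice, 12 of them at an adjusted p under 0.05 (permutation test within groups, 100000 resamples, two-sided, adjusted over 37 relations). The closest was Slc1a3, with Pearson's r = 0.738 (permutation p = 0.00057, adjusted p = 0.00527) and Spearman's rho = 0.836 (permutation p = 1e-05, the smallest that these resamples can give), and r was 0.816 without the 2 mice farthest from the median of Gja1. Plpp3 followed at r = 0.704 and S1pr1 at r = 0.690. Aldh1l1 was at r = 0.041 and Cbs at r = -0.217. All genes of a library share its depth and its mix of sorted nuclei. Correlations of genes outside the list with Gja1 were not taken, so whether 12 of 37 is more than among other genes was not tested.

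Other lists moved beside the homeostatic genes, and their part in the genotype differences was not tested. In the mean of the differences 4.94% of all genes were called higher and 4.79% lower with the factors. Without the factors 197 of 21768 genes were called higher and 152 lower. All 14 oligodendrocyte markers were called higher in C9-BACexp mice with the factors and 0 without them, with a median of 0.79, and none was at 0 in a library. Their sum was 780.8 to 5375 CPM in C9-BACexp mice (median 1668), against 414.9 to 2407 CPM in C57BL/6J mice (median 1050). Of 10 oligodendrocyte precursor markers 4 were called higher and 1 lower (1 higher without the factors). Of 11 tested endothelial and mural markers 4 were called lower and 0 higher, where 4.79% of all genes were called lower, and 0 were called without the factors, with a median of -0.75 and a sum of 17.9 to 29.4 CPM in C9-BACexp mice (median 24.1), against 24.8 to 56.4 CPM in C57BL/6J mice (median 36.3), and Kcnj8 and Abcc9 were at 0 in some libraries. The 14 microglia markers had 0 calls, with Fcrls and Tyrobp at 0 in some libraries. Striatal projection neuron markers were called higher for 4 of 11, 3 of them also without the factors, and their sum of 8059.5 CPM in C9-BACexp NTG replicate 6 was the highest of all libraries.

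Of 40 other astrocyte-enriched genes, 12 were called lower and 4 higher in the mean of the differences (4.79% and 4.94% of all genes). Without the factors 3 were called lower (0.698% of all genes). Their median was -0.35, and their sum was 829.4 to 1412 CPM in C9-BACexp mice (median 1091), against 976.7 to 1493 CPM in C57BL/6J mice (median 1177). The called genes of smallest p in this list were higher: Fgfr2 (log2 fold change 0.79, adjusted p = 8.58e-06), a growth factor receptor, Daam2 (0.54, adjusted p = 0.000576), a regulator of Wnt signaling, and Hepacam (0.47, adjusted p = 0.00106), an adhesion protein. Oligodendrocytes are known to express all 3, and the part of oligodendrocyte RNA in these differences was not tested. Of 24 reactive astrocyte genes 19 were tested and 2 called lower, Osmr, the oncostatin M receptor (log2 fold change -1.35, adjusted p = 0.0162), and S100a10, a small calcium-binding family protein (-0.73, adjusted p = 0.0421), where 4.79% of all genes were called lower, and the median of the 19 was -0.53. Neither was called without the factors (adjusted p = 0.0954 for Osmr and 0.245 for S100a10). No reactive gene was called higher in any of the comparisons, but in C57BL/6J mice 0% of all genes were called for crRNA-13 against NTG. There the median of the 19 was 0.36, and it was 0.80 for crRNA-13 against EGFP-KASH only (0.404% of all genes called). In C57BL/6J mice Gfap had 3.36 to 21.1 CPM (median 15.1) with crRNA-13. It had 1.24 to 6.54 CPM (median 2.82) with NTG and 1.91 to 4.23 CPM (median 2.58) with EGFP-KASH only.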

How the data were processed

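RNA of EGFP-KASH+ nuclei, at least 15000 per mouse, was sequenced for 27 mice, 1 library each. Per the methods and the labels, the authors ran Salmon 1.10.0 against an index of spliced and unspliced mouse transcripts plus 3 human C9ORF72 transcripts. They made gene-level values with tximport (length-scaled TPM, R 4.3.1), and the paper states that multi-mapped reads were kept. The deposited table holds the authors' expected counts, not normalised, of which 36.8% are whole numbers, and these were rounded here. Replicates are separate mice, and the labels name no batch. The lowest Spearman correlation between libraries was 0.911.

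Counts were tested in edgeR 4.0.16 (R 4.3.3) with TMM scaling, genes kept by filterByExpr (minimum count 10, minimum total 15), and a robust quasi-likelihood F test in 1 model of 6 groups with 4 factors estimated from deviance residuals of a fit on the groups. The study used limma-trend with 4 RUVseq factors, and that factor step was rebuilt here, so its settings may differ. The factors mainly lower the standard errors, and calls are therefore also given without them. Residual degrees of freedom were 17 with and 21 without the factors. Benjamini-Hochberg adjustment ran jointly over the 3 genotype comparisons and the 2 of crRNA-13 within C9-BACexp mice, and singly elsewhere. Calls needed more than a 1.2-fold difference and an adjusted p under 0.05, with a higher fold and an adjusted p under 0.01 where crRNA-13 and NTG are compared within C57BL/6J. CPM were computed from the counts on TMM-scaled totals and are not per length, so levels are not compared between genes. The fit was tested on simulated data.

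The members and lists were chosen with earlier results of these data known. CPM are given by group, or as ranges over each genotype, for members called in any comparison and for the member of highest mean CPM in each role. Not every group is printed for each of these. From each other list at most 3 called genes of smallest p are named. Some genes that this rule would name are not reported here. Alternatives were RLE scaling, library totals, no filter, no factors, factors from empirical control genes, DESeq2 1.42.0, limma-trend (limma 3.58.1), a replicate block, adjustment within comparisons, fits on the compared groups, and leaving out libraries. Promoters are from RefSeq (GRCm38.p6).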

Additional observations from a re-analysis of the deposited data

Results flagged for a closer look

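The 22 genes checked were those called in any comparison and those of highest mean CPM in their role. In the 4 groups of 4 to 6 mice (88 sets of values), 8 sets had a highest or lowest mouse whose gap to the next, divided by the range, passed Dixon's 95% limit. Chance would flag about 1 in 20 sets if they were independent and normally distributed. Genes of a library vary together, so the 8 cannot be set against that rate. C9-BACexp NTG replicate 1 was the highest of its group for Aldh1l1 (15.8 CPM), Aldoc (14.7 CPM), F3 (6.73 CPM) and Htra1 (102 CPM), and its oligodendrocyte markers summed to 3071 CPM. In C9-BACexp NTG replicate 6 Slc4a4 reached 536 CPM and Gli3 32.5 CPM, beside a striatal marker sum of 8059.5 CPM. Htra1 reached 104 CPM in C9-BACexp crRNA-13 replicate 1, whose oligodendrocyte markers summed to 5375 CPM. Pla2g7 was lowest, at 5.17 CPM, in C57BL/6J NTG replicate 3. The part of these other cell types in the values was not tested.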

How the results depend on the processing

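No gene changed direction among the calls, and RLE scaling or plain library totals moved no count. The number of the 38 genes called between the genotypes with NTG was 5. It was 0 without the factors, 1 with factors from empirical control genes, 9 in DESeq2 with the factors and 1 without them, 8 with p adjusted within the comparison, 9 without C9-BACexp NTG replicates 1 and 6, and 9 in a fit of the compared groups. With crRNA-13 it was 3, and 0 without the factors, with empirical control genes, in DESeq2 without the factors, with adjustment within the comparison and in a fit of the compared groups, and 5 in DESeq2 with the factors. With EGFP-KASH only it was 0, and 2 in DESeq2 with the factors and 1 without C9-BACexp NTG replicates 1 and 6. For crRNA-13 against NTG in C9-BACexp mice it was 1, and 0 without the factors, with empirical control genes, in DESeq2 without the factors, with adjustment within the comparison and in a fit of the compared groups, and 2 in DESeq2 with the factors and without NTG replicates 1 and 6. In the mean of the genotype differences it was 16, and 4 without the factors and 10 with empirical control genes. The cause of these changes was not tested. For the alternatives and left-out libraries of this section, the fit without the factors aside, the share of all genes called was not taken. Their counts therefore describe the list only. C9-BACexp NTG replicates 1 and 6 had the highest means of the list in their group, so wider differences without them were set in advance.

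Leaving out 1 library at a time gave 2 to 8 called genes with NTG, 0 to 5 with crRNA-13 and 0 to 2 with EGFP-KASH only between the genotypes, and 9 to 18 in the mean of the differences. It gave 1 to 2 for crRNA-13 against NTG, 0 to 1 for crRNA-13 against EGFP-KASH only and 0 to 0 for NTG against EGFP-KASH only among C9-BACexp, and 0 to 0, 0 to 1 and 0 to 1 for the same comparisons in C57BL/6J mice. With NTG there were 2 without C57BL/6J replicate 1 or C9-BACexp replicate 4, 3 without C9-BACexp replicate 2, 3 or 6, and 8 without C9-BACexp replicate 1. With crRNA-13 there were 5, 1 and 0 without C57BL/6J replicates 1, 2 and 5. With EGFP-KASH only there were 2 and 1 without C57BL/6J replicates 2 and 3, and 1 without C9-BACexp replicate 5.

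Little pairing by replicate number was seen: of 48 same-numbered pairs of libraries 10 had deviations correlated over 0.1. Their median was -0.0031 and the highest 0.286, against a median of 0.000135 for other pairs. These correlations do not exclude a pairing. With a replicate block 2 genes were called with NTG, 0 with crRNA-13 and 11 in the mean of the differences. Of 25 single calls, 12 were kept with the block, 4 without the factors and 25 in DESeq2 with the factors. Genes under 1 CPM, such as Fabp7, Slc14a1 and Id3, are limited by their counts.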

Other observations

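Among the genes outside the list whose levels went most closely with the mean of the 38 genes, over 27 mice with group means removed, were Tril (r = 0.861), Ndrg2 (0.849), Gpr37l1 (0.816), Cnih1 (0.788), Map10 (0.767), Gramd3 (0.758), Prex2 (0.749), Mat2b (0.744) and Trnt1 (0.741). These are Pearson correlations given as a description, since all genes of a library share its depth and its mix of nuclei, and the median over 15995 other genes was 0.0167. Ndrg2 and Gpr37l1 are well known for their abundance in astrocytes. In the mean of the genotype differences Ndrg2 (log2 fold change -0.48, adjusted p = 0.00207), Prex2 (-0.42, adjusted p = 0.00727) and Mat2b (-0.30, adjusted p = 0.0299) were called lower in C9-BACexp mice, by edgeR's quasi-likelihood test with the factors, and the other 6 named here were not called.

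Among the 33 members with a mean of at least 1 CPM, the correlation with the same mean ran from -0.0039 for Slc6a11 to 0.812 for Atp1b2, with a median of 0.583. A member is part of that mean, so its own value is somewhat raised.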
